A study of Arabidopsis thaliana with 4 samples.

Results

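The 10 genes described here encode the minor light-harvesting antenna proteins of photosystem II (LHCB4.1, LHCB4.2, LHCB4.3, LHCB5 and LHCB6), the quenching protein PSBS and the antenna of photosystem I (LHCA1, LHCA2, LHCA3 and LHCA4). They were selected by locus, and all 10 are among the 24750 genes listed in the count table. Native polyadenylated RNA of Arabidopsis thaliana strain Col-0, for which the labels name no transgene or chemical treatment, was read on the ONT MinION by direct RNA sequencing (DRS), in which the RNA strand itself passes through the pore. The floral bud libraries (n = 2 biological replicates) came from plants that spent 14 days on sucrose-containing agar plates and then 3 weeks in soil, harvested at growth stage 6.0 to 6.1. The seedling libraries (n = 2 biological replicates) came from seedlings harvested after the 14 days on plates. Both stages grew under 16 h of light and 8 h of dark. Organ, age and growth medium changed together with the stage and cannot be told apart.

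Light-harvesting proteins bind chlorophyll and carotenoids in the thylakoid membrane and pass the absorbed energy to the photosystem cores. The minor antenna proteins CP29 (LHCB4), CP26 (LHCB5) and CP24 (LHCB6) sit as monomers between the photosystem II core and the LHCII trimers, which are built from LHCB1, LHCB2 and LHCB3. PSBS is a relative of the antenna proteins that switches the antenna to heat dissipation when the thylakoid lumen turns acidic. LHCA1 to LHCA4 form a crescent of dimers, LHCA1 with LHCA4 and LHCA2 with LHCA3, along a side of photosystem I. All are encoded in the nucleus, and most are known for their high mRNA levels in green leaf tissue.

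CP29 is the member encoded by several paralogs, and these paralogs carried the main contrast between the stages, so the ends of their coding sequences are shown. The sequences are the last 90 coding bases of the longest RefSeq transcript of each paralog in TAIR10.1, read 5′ to 3′ on the plus strand, at chr5:210154-210243 for LHCB4.1, chr3:2718576-2718665 for LHCB4.2 and chr2:16747101-16747190 for LHCB4.3, all in an exon. Capitals mark the last 4 codons of the last stretch of residues that the 3 proteins share, and the stop codon.
LHCB4.1: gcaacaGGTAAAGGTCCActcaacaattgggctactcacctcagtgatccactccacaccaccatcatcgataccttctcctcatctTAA
LHCB4.2: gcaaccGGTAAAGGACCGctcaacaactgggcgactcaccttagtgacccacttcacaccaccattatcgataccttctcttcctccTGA
LHCB4.3: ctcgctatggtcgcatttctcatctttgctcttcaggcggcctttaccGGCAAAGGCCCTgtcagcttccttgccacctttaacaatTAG
After the shared stretch, 23 codons precede the stop in LHCB4.1, 23 in LHCB4.2 and only 9 in LHCB4.3. The predicted proteins have 290, 287 and 276 residues. Over aligned residues, LHCB4.1 and LHCB4.2 are 89.5% identical, whereas LHCB4.3 is 72.8% identical to LHCB4.1 and 70.7% identical to LHCB4.2. LHCB4.3 thus differs from both other CP29 genes in sequence, including a shorter C-terminal end, as well as in its counts below. On the transcript level, LHCB4.3 matched the other paralogs at 73.9% to 74.7% identity over at most 49.1% of a transcript, and LHCB4.1 and LHCB4.2 matched each other at 81.4% identity over 62.8% to 67.6%.

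The promoters of 4 members are shown because these genes span the range of responses: LHCA4 and LHCB4.1 were higher in seedlings, LHCB4.3 was higher in floral buds, and PSBS differed least. Each is the 250 bases before the RefSeq start of the gene in TAIR10.1, read 5′ to 3′ on the strand of the gene: chr5:208616-208865 (plus strand) for LHCB4.1, chr2:16745378-16745627 (plus strand) for LHCB4.3, chr1:16869971-16870220 (plus strand) for PSBS and chr3:17495034-17495283 (minus strand) for LHCA4. Capitals mark matches on either strand to GATAAG (the I-box core), CACGTG (the G-box), CCAAT, its extension CCAATC, which overlaps it, and TATAAA (the TATA box), motifs known from light-regulated and other plant promoters.
LHCB4.1: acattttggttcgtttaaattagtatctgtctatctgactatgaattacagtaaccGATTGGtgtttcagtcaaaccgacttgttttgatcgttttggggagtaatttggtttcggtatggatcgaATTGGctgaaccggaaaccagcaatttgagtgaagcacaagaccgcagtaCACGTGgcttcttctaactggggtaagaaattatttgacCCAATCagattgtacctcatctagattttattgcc
LHCB4.3: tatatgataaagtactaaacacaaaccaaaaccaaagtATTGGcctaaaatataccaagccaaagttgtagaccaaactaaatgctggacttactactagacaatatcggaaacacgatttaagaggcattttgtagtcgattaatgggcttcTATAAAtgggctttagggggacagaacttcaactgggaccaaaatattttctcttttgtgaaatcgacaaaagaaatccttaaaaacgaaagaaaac
PSBS: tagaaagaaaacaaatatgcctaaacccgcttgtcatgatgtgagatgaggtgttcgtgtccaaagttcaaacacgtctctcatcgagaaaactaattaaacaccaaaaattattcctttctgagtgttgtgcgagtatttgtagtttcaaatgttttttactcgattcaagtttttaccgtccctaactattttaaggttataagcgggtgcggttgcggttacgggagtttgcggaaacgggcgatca
LHCA4: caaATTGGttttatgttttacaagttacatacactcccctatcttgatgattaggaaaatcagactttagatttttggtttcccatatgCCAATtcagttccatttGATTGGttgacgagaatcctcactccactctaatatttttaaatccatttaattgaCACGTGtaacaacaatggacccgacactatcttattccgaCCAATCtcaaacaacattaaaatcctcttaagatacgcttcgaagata
CACGTG occurred in the windows of 3 of 10 members (LHCB4.1, LHCB6 and LHCA4), and in 6.5% of the 27443 promoters of protein-coding genes. GATAAG occurred in 3 members (LHCB4.2, LHCB6 and LHCA1) and in 12.3% of all promoters. CCAAT occurred in 8 members and in 46.0% of all promoters, and CCAATC in 5 members and in 10.2% of all promoters. TATAAA occurred in 4 members and in 47.3% of all promoters. The LHCB4.3 window held CCAAT and TATAAA but not the other motifs, and the PSBS window held no match. These are matches of letters in a fixed window and were not tested as binding sites. The windows end at the annotated start of the gene, so bases before a transcript start inside the gene were not searched. This matters for PSBS, which has 3 annotated transcripts and, at 3207 bases, the widest span of the members.

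The libraries held 669352 and 796873 estimated counts for floral buds and 579350 and 620123 for seedlings. The labelled stages were checked against markers. The 5 floral organ genes (AP1, AP3, PI, AG and SEP3) summed to 1147 to 1183 CPM (counts-per-million, here without further normalisation) in floral buds and 5.97 to 9.15 in seedlings, where 3 of the 5 were at 0. The 3 anther genes (A9, ATA1 and MS2) summed to 406 to 530.1 CPM in floral buds and were at 0 in seedlings. The 4 root genes (PYK10, CASP1, EXPA7 and COBL9) summed to 2.99 to 10.9 CPM in floral buds, where CASP1 and EXPA7 were at 0, and to 1269 to 1395 in seedlings. PYK10 carried the seedling sum, with 778.9 and 766.3 counts, whereas EXPA7 had 2.0 and 0.0 counts in seedlings and COBL9 had 4.0 and 2.0 counts in floral buds, against 4.0 and 3.0 in seedlings. The stages therefore also differed in the organs they contained, and the part of this in the results below was not tested. In such bulk samples, fewer green cells and less antenna mRNA per cell cannot be told apart.

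Of the 10 genes, 8 were lower in floral buds than in seedlings, LHCB4.3 was higher in floral buds, and PSBS was not a differentially expressed gene (DEG). A DEG had a false discovery rate (FDR) below 0.05 and a fold change above 2 in edgeR's quasi-likelihood test with Benjamini-Hochberg adjustment. In that test, 19.8% of the 18647 genes tested were DEGs, 9.52% with higher levels in seedlings and 10.3% with higher levels in floral buds. All 10 members were among the genes tested, which needed at least 5 counts summed over the libraries. The median log2 fold change of the members (floral buds over seedlings, so a negative value means a lower level in floral buds) was −2.12, beside 0.06 over all genes tested. The CPM of the stages, from here on normalised by the edgeR factors, did not overlap for any member, with seedlings above in 9 and floral buds above in 1. The same was found for 57.5% of all genes tested, with seedlings above in 27.0% and floral buds above in 30.5%. By library size alone, without these factors, the stages overlapped for PSBS. Summed, the 10 genes made up 0.748% and 0.726% of the counts of the floral bud libraries, against 2.60% and 2.73% of the counts of the seedling libraries.

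**Figure D1:**
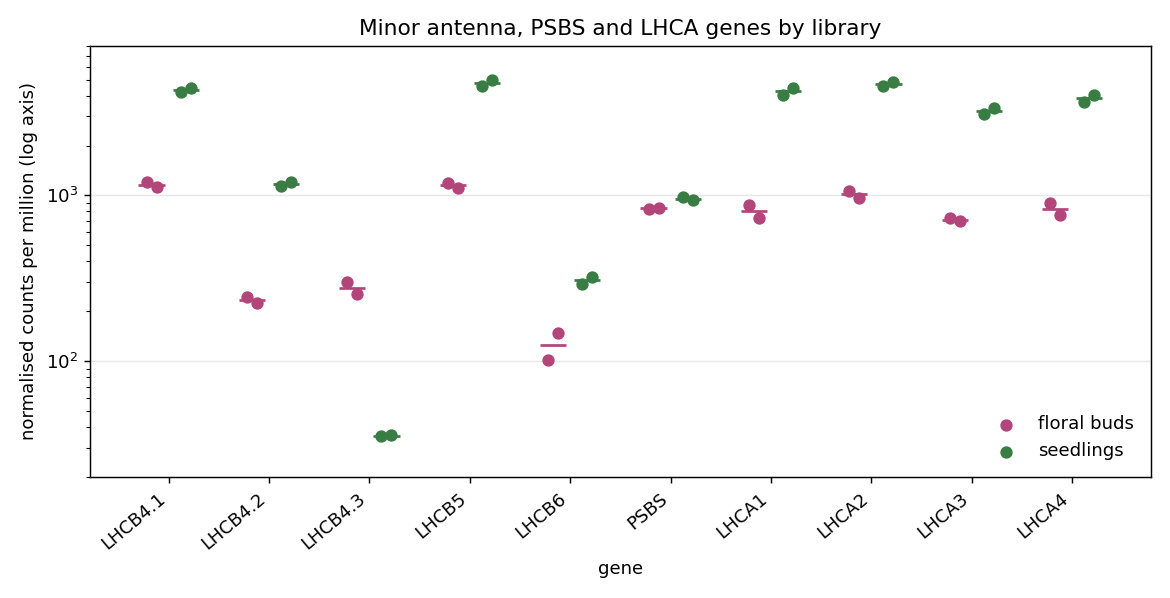
Normalised CPM (log axis) of each gene in each library, with points for libraries and short lines for the mean of the 2 libraries of a stage. LHCB4.3 lies at 253 and 300.3 CPM in floral buds above 35.3 and 35.6 CPM in seedlings, PSBS lies close together in both stages, and the other 8 genes are lower in floral buds.

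LHCB4.1 (AT5G01530, chr5:208866-210548, 2 exons, TAIR10.1) encodes the most abundant CP29 transcript in both stages. It had 962.4 and 798.4 estimated counts in floral buds, against 2384.7 and 2638.6 in seedlings. Both floral bud libraries were far below both seedling libraries although they were sequenced more deeply. The level was 1163 ± 50.7 CPM in floral buds and 4341 ± 185 CPM in seedlings (SD, n = 2 each), with a log2 fold change of −1.90 ± 0.12 (SE) and an edgeR FDR of 7.1e-50 by Benjamini-Hochberg adjustment. LHCB4.1 was thus 3.73-fold lower in floral buds. With limma-voom and full quantile normalization its log2 fold change was smaller, at −1.27.

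LHCB4.2 (AT3G08940, chr3:2717557-2718923, 2 exons) encodes another CP29 isoform, close to LHCB4.1 in sequence. It had 195.6 and 158.9 estimated counts in floral buds, against 642.8 and 713.6 in seedlings. The stages did not overlap, and both floral bud values were low. The log2 fold change was −2.32 ± 0.16 (edgeR, Benjamini-Hochberg FDR 1.88e-46), a level 5.00-fold lower in floral buds. Its 3′ end shares 44 bases with AT3G08943 on the opposite strand, which had 11.3 to 18.6 counts in each library.

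LHCB4.3 (AT2G40100, chr2:16745628-16747424, 2 exons), also known as LHCB8, is the CP29 paralog with the shorter C-terminal end shown above and is known in Arabidopsis as a high-light responsive gene. It had 241.3 and 178.8 estimated counts in floral buds, against 19.6 and 21.4 in seedlings. Both floral bud libraries were high, and the seedling libraries were low and close to each other. The level was 277 ± 33.6 CPM in floral buds and 35.4 ± 0.2 CPM in seedlings (SD, n = 2 each). The log2 fold change was 2.96 ± 0.26 (edgeR, Benjamini-Hochberg FDR 1.63e-28), a level 7.78-fold higher in floral buds. Leaving out each library in turn gave log2 fold changes of 2.84 to 3.05. LHCB4.3 was the only one of the 10 genes with a higher level in floral buds.

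The composition of the CP29 transcripts changed with it, a measure that does not depend on the scaling of the libraries. LHCB4.3 gave 17.2% (95% Wilson interval 15.3% to 19.3%) and 15.8% (13.8% to 18.0%) of the LHCB4.1, LHCB4.2 and LHCB4.3 counts in floral buds, against 0.656% (0.425% to 1.01%) and 0.622% (0.407% to 0.95%) in seedlings. The intervals cover counting error only. The mean difference was 15.9 percentage points, and the replicates of a stage lay closer together than the stages. LHCB4.1 made up 68.8% and 70.2% in floral buds, against 78.2% in both seedling libraries. LHCB4.2 made up 14.0% in both floral bud libraries, against 21.1% and 21.2% in seedlings. In floral buds the share of LHCB4.3 was above that of LHCB4.2 in both libraries, with overlapping intervals, and in seedlings LHCB4.3 was the rarest paralog in both libraries. With 2 libraries against 2, the smallest p that an exact two-sided permutation test can give is 0.333. Each of the 3 CP29 shares gave p = 0.333 in this exact test, with a Benjamini-Hochberg value of 0.37 over the 10 within-library relations computed, so these shares could not pass a threshold in this design.

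**Figure D2:**
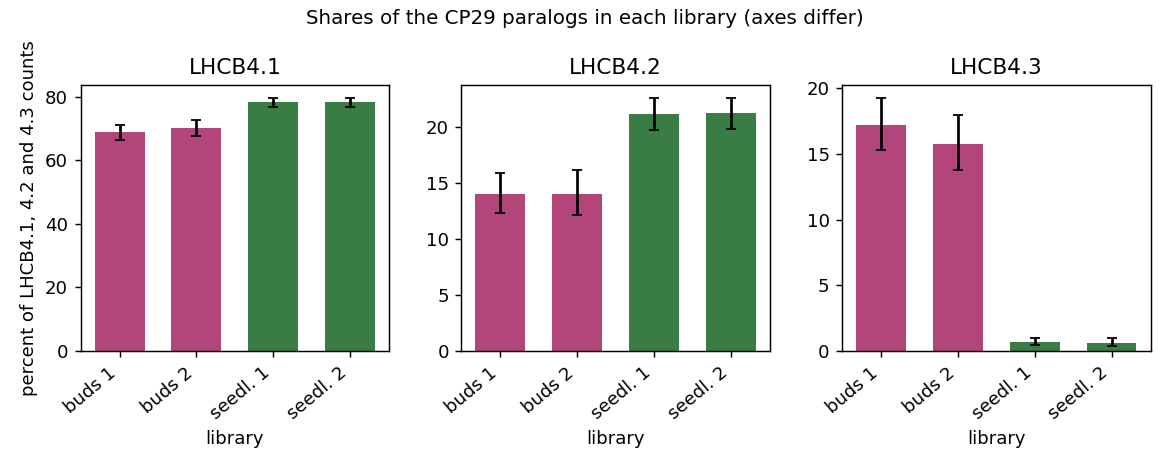
Share of LHCB4.1, LHCB4.2 and LHCB4.3 in their summed counts (percent, vertical axes from 0 with different maxima), 1 bar per library and 95% Wilson intervals as error bars. LHCB4.3 takes 17.2% and 15.8% in the floral bud libraries and 0.656% and 0.622% in the seedling libraries.

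LHCB5 (AT4G10340, chr4:6408007-6409849, 6 exons) encodes CP26, which links an LHCII trimer to the photosystem II core. It had 959.0 and 784.3 estimated counts in floral buds, against 2587.3 and 2952.4 in seedlings. Floral buds were low in both libraries, with no overlap. The level was 1151 ± 62.1 CPM in floral buds and 4784 ± 308 CPM in seedlings (SD, n = 2 each), a log2 fold change of −2.05 ± 0.12 (edgeR, Benjamini-Hochberg FDR 1.08e-58) or a 4.16-fold lower level in floral buds.

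LHCB6 (AT1G15820, chr1:5446462-5447880, minus strand, 2 exons) encodes CP24, the outer partner of CP29. It had 80.7 and 104.7 estimated counts in floral buds, against 166.0 and 188.6 in seedlings. The stages did not overlap, but the floral bud replicates were further apart than those of the other members, at 101 and 148 CPM against 293 and 320.3 CPM in seedlings. LHCB6 was a DEG with the smallest change of the 9 (log2 fold change −1.31 ± 0.20, edgeR, Benjamini-Hochberg FDR 1.39e-09), 2.47-fold lower in floral buds. The fit pooled the spread over genes, so this SE and FDR do not reflect how far the LHCB6 replicates lay apart. Without floral bud replicate 1 the log2 fold change was −1.04, and without floral bud replicate 2 it was −1.63. In edgeR's glmTreat, which tests against a fold change of 2 and calls 11.4% of all genes tested, LHCB6 was not called (Benjamini-Hochberg FDR 0.127) and the other 8 DEGs were. Its FDR over the other alternatives was 3.08e-10 to 0.0198. The gene holds the whole of AT1G05207, an antisense long noncoding RNA that covers 25.2% of its span and was listed at 0 in every library, and it shares 103 bases with AT1G15810 on the opposite strand, at 1.0 or 2.0 counts per library. The counting was made without strand, so reads of LHCB6 and of its antisense neighbour cannot be told apart.

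PSBS (AT1G44575, listed as NPQ4, chr1:16870221-16873427, 3 exons in the longest transcript) was the member that differed least between the stages. It had 661.2 and 598.1 estimated counts in floral buds, against 553.2 and 549.5 in seedlings. After normalisation, the floral bud libraries had 824 and 844 CPM and the seedling libraries 976 and 932 CPM, so the seedling values were slightly higher without overlap. This separation depended on the edgeR factors. By library size alone, floral bud replicate 2 lay above seedling replicate 2. The log2 fold change was −0.19 ± 0.14 with a 95% interval of −0.47 to 0.08, and PSBS was not a DEG (edgeR, Benjamini-Hochberg FDR 0.359). The interval lies within a fold change of 2 on either side, and it does not show that the level was the same. Relative to LHCB5 within a library, PSBS had 0.725 counts per LHCB5 count in floral buds and 0.2 in seedlings (geometric means, n = 2 each). The log2 ratios were −0.54 and −0.39 in floral buds, against −2.23 and −2.42 in seedlings, a difference of 1.86 (exact permutation test, p = 0.333, Benjamini-Hochberg value 0.37). The same ratio for LHCB6 over LHCB5 was −3.57 and −2.90 in floral buds, against −3.96 and −3.97 in seedlings (exact permutation test, p = 0.333, Benjamini-Hochberg value 0.37).

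The 4 LHCA genes were lower in floral buds by similar folds, 4.54-fold to 5.28-fold. LHCA1 (AT3G54890, chr3:20339504-20341176, minus strand) had 706.4 and 516.1 estimated counts in floral buds, against 2274.8 and 2647.6 in seedlings, and its dimer partner LHCA4 (AT3G47470, chr3:17493343-17495033, minus strand) had 719.4 and 539.0 in floral buds, against 2085.9 and 2380.7 in seedlings. For this pair the log2 fold changes were −2.40 ± 0.13 for LHCA1 and −2.22 ± 0.13 for LHCA4 (edgeR, Benjamini-Hochberg FDR 1.87e-74 and 2.4e-63). LHCA4 shares 53 bases with ATSMC2 on the opposite strand, which had 1.9 to 6.1 counts per library. LHCA2 (AT3G61470, chr3:22745514-22747444) had 850.9 and 685.7 estimated counts in floral buds, against 2578.0 and 2843.4 in seedlings. Its dimer partner LHCA3 (AT1G61520, chr1:22699715-22701412) had 585.6 and 495.0 in floral buds, against 1766.1 and 1990.2 in seedlings. For this pair the log2 fold changes were −2.21 ± 0.13 for LHCA2 and −2.18 ± 0.13 for LHCA3 (edgeR, Benjamini-Hochberg FDR 4.83e-66 and 9.47e-59). In each of the 4 genes both floral bud libraries were low and no seedling library came near them. LHCA2 has a copy-like partner, AT5G28450, with 97.6% identity over 29.2% of the LHCA2 transcript. Whether reads were shared between them was not tested.

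The proportions among the LHCA genes stayed within a few percentage points. LHCA2 gave 29.7% and 30.7% of the LHCA1 to LHCA4 counts in floral buds, against 29.6% and 28.8% in seedlings, a difference of 0.986 points (exact permutation test, p = 0.333, Benjamini-Hochberg value 0.37). Without floral bud replicate 2 this difference was 0.513 points and without seedling replicate 2 it was 0.592 points, while it was 1.46 points without floral bud replicate 1 and 1.38 points without seedling replicate 1. The Wilson intervals of the 4 libraries overlap. LHCA1 gave 24.7% and 23.1% in floral buds, against 26.1% and 26.9% in seedlings. LHCA3 gave 20.5% and 22.1% in floral buds, against 20.3% and 20.2% in seedlings. LHCA4 gave 25.1% and 24.1% in floral buds, against 24.0% and 24.1% in seedlings, and overlapped between the stages. The largest of these differences was −2.62 points, for LHCA1, compared with 15.9 points for LHCB4.3 among the CP29 paralogs.

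**Figure D3:**
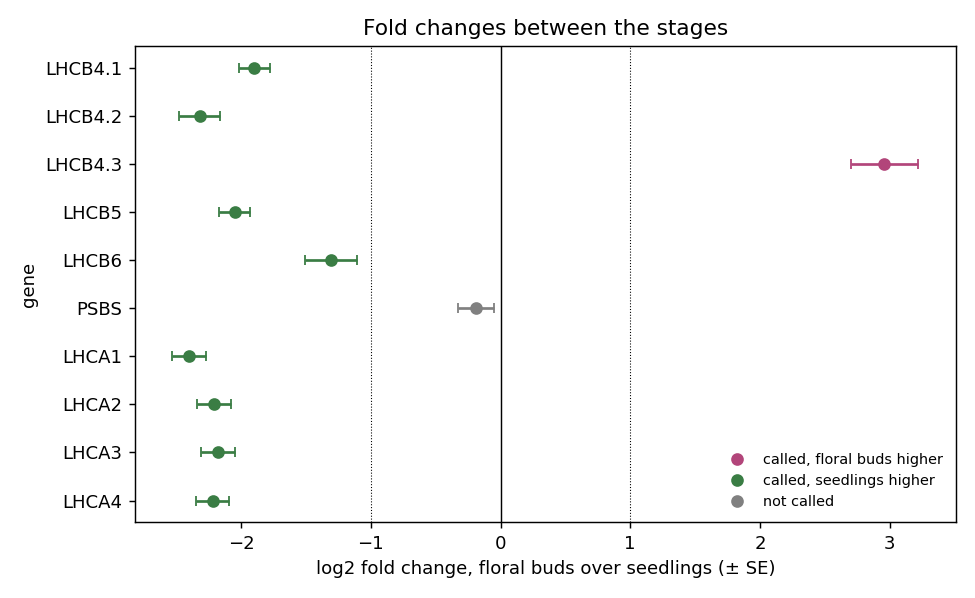
Log2 fold change of each gene, floral buds over seedlings, with its SE as horizontal bars and dotted lines at a fold change of 2 in either direction. The LHCA genes lie between −2.40 and −2.18, PSBS lies at −0.19, and LHCB4.3 stands alone on the positive side at 2.96.

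Levels between genes were compared as CPM per kb of the longest annotated transcript. In floral buds, LHCB4.1 (833 CPM per kb) and LHCB5 (829) were highest and their replicates overlapped. LHCA2 (721), LHCA1 (670.1) and LHCA4 (639.8) followed and each overlapped its neighbour, and then came PSBS (549) and LHCA3 (532), which also overlapped. LHCB4.3 (209), LHCB4.2 (183) and LHCB6 (103) were lowest, and their replicates did not overlap. The gap between LHCB4.3 and LHCB4.2 was very narrow, with 191 as the lowest LHCB4.3 value and 190.5 as the highest LHCB4.2 value. In seedlings, LHCA1 (3543 CPM per kb), LHCB5 (3444) and LHCA2 (3327) were highest and overlapped in that order, followed by LHCB4.1 (3109) and LHCA4 (2979), which overlapped each other, and by LHCA3 (2414). LHCB4.2 (915), PSBS (628), LHCB6 (255) and LHCB4.3 (26.8) were lowest, without overlap between neighbours. Per kb, PSBS was thus at the level of LHCA3 in floral buds and well below it in seedlings. LHCB4.3 was above LHCB4.2 in floral buds and last in seedlings, also in CPM. The order of some other genes depended on the division by length, which the authors' CPM for DRS does not use. In CPM, PSBS (834) was above LHCA3 (715) in floral buds without overlap, and below it in seedlings (954 against 3245). In seedlings, LHCA1 (4251 CPM) was then below LHCB5 (4784), LHCA2 (4684) and, with overlap, LHCB4.1 (4341). LHCB6 was below LHCB5, the other minor antenna gene with no paralog here, in both stages. The counting without strand described for LHCB6 applies to this comparison, and its effect on the level was not tested.

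**Figure D4:**
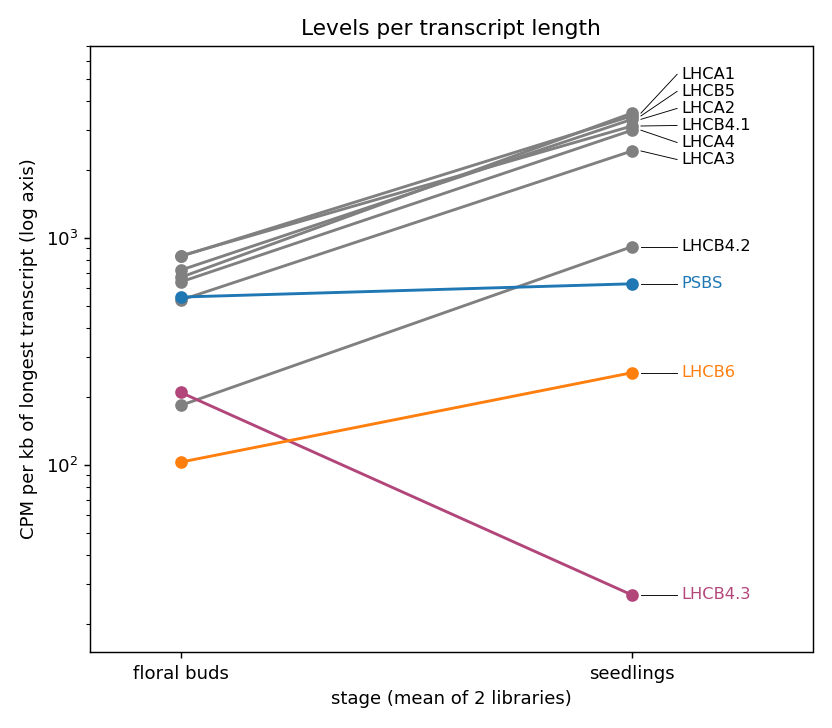
Mean level of each gene per kb of its longest annotated transcript (CPM per kb, log axis) in floral buds and seedlings, with a line joining the stages. LHCB4.3 is at 209 in floral buds and at 26.8 in seedlings, and the line of PSBS is nearly level (549 in floral buds and 628 in seedlings).

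The LHCII trimer genes, which encode the major antenna, had a larger median fall than the members. All 9 were lower in floral buds, with a median log2 fold change of −2.73, ranging from −1.42 (LHCB2.3) to −6.41 (LHB1B1, edgeR, Benjamini-Hochberg FDR 3.8e-221). LHB1B1 had 19 and 22 counts in floral buds, against 1287 and 1405 in seedlings. Summed over genes, the members had 5962 and 4859 counts in floral buds beside 4470 and 3641 for the LHCII genes, and 15059 and 16927 counts in seedlings beside 20715 and 21825. The members thus exceeded the LHCII genes in both floral bud libraries and were below them in both seedling libraries. The ratio was 1.33 in floral buds and 0.751 in seedlings, a difference of 0.83 on the log2 scale, with log2 ratios of 0.42 in both floral bud libraries against −0.46 and −0.37 in seedlings (exact permutation test, p = 0.333, Benjamini-Hochberg value 0.37). CAB1, CAB2 and CAB3, the LHCB1 genes on chromosome 1, are near-identical, and without them the difference was 0.97.

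The other genes of the antenna system were taken from lists of textbook members, and their DEGs are counts without a list test. Of the nuclear photosystem I subunits, 11 of 12 were lower in floral buds (median log2 fold change −1.57), from PSAO (−1.84 ± 0.13, FDR 3.99e-46) to PSAG, which was not a DEG (−0.77 ± 0.46, FDR 0.239) and had 7 and 21 counts in floral buds, against 23 and 14 in seedlings. PSAG was at −1.88 and a DEG without floral bud replicate 2, and at −0.10 without floral bud replicate 1. Of the nuclear photosystem II subunits, 9 of 10 were lower in floral buds (median −1.46), from PSBO1 of the oxygen-evolving complex (−1.79 ± 0.12, FDR 7.96e-45) to PSBQA (−0.91 ± 0.14, FDR 3.38e-09), which missed the fold limit but passed it without floral bud replicate 1 (−1.01). With limma-voom the photosystem II count was 4. FDR values in this and the next paragraphs are from edgeR's quasi-likelihood test with Benjamini-Hochberg adjustment. LHCA1 to LHCA4, LHCB5, LHCB4.1 (−1.90) and LHCB4.2 (−2.32) had larger falls than the median of either list of photosystem subunits. LHCB6 (−1.31) and PSBS (−0.19) did not, and LHCB4.3 was higher in floral buds.

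A few relatives and partners went the other way. Among 7 tested LHC-like proteins, which bind pigments during stress or assembly, ELIP1, an early light-induced protein, was higher in floral buds, with 54 and 41 counts in floral buds against 4 and 3 in seedlings (log2 fold change 3.33 ± 0.50, FDR 7.95e-10). ELIP2 had 13 and 7 counts in floral buds, against 1 and 1 in seedlings, a ratio of 8.18 with an exact counting interval of 1.99 to 72.2. It was a DEG (FDR 0.019), a call that was lost without floral bud replicate 1, without seedling replicate 1 and without seedling replicate 2. The other 5, including LIL3:1 (−0.59 ± 0.21, FDR 0.0256), were not DEGs. Of the 3 rare antenna genes, AT1G76570 (−0.27 ± 0.72), Lhca5 (−0.40 ± 0.28) and Lhca6 (−0.61 ± 0.31), none was a DEG in edgeR, DESeq2 or limma-voom, and 1 had an unadjusted p under 0.05.

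Among 11 quenching and xanthophyll genes, 5 were lower in floral buds, 1 was higher and 5 were not DEGs. LUT1, a carotenoid hydroxylase of lutein synthesis, had 55 and 47 counts in floral buds, against 16 and 19 in seedlings (1.15 ± 0.35, FDR 0.00681). The LUT1 call was lost without seedling replicate 1 and with DESeq2. NPQ1, the violaxanthin de-epoxidase that works with PSBS, had 13 and 11 counts in floral buds, against 11 and 41 in seedlings. Its fall (−1.48 ± 0.44, FDR 0.00475) rested on seedling replicate 2, without which the log2 fold change was −0.29 and the call was lost. The other libraries left out gave values down to −2.13. With DESeq2 2 genes of this list were DEGs and with glmTreat 0.

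Of 4 antenna kinases and phosphatases, PBCP, a photosystem II core phosphatase, was lower in floral buds (−1.31 ± 0.43, FDR 0.0133), with 21 and 6 counts in floral buds against 21 and 30 in seedlings, a call that was lost without floral bud replicate 2 or without seedling replicate 2. Leaving out each library gave −2.34 to −0.77. The kinase STN8 was not a DEG (−0.68 ± 0.34, FDR 0.142). None of the 4 tested genes of the chloroplast signal recognition pathway, which inserts antenna proteins into the thylakoid, was a DEG in edgeR, DESeq2 or limma-voom, although 3 had an unadjusted p under 0.05. The 3 passed the edgeR FDR limit but not the fold limit, and 1 of them, CPSRP54 (−0.75 ± 0.27), was a DEG without seedling replicate 1. The 4 genes ran from AT2G47450, which encodes CPSRP43 (−0.85 ± 0.28, FDR 0.0124), to CPFTSY (−0.12 ± 0.38, FDR 0.88). Of 3 regulators of antenna genes, GPRI1 (also GLK1), an activator of chloroplast genes, was lower in floral buds, with 16 and 17 counts in floral buds against 38 and 71 in seedlings (−2.09 ± 0.34, FDR 2.37e-08). HY5, a light-signalling factor, had 16 and 10 counts in floral buds, against 7 and 3 in seedlings (0.97 ± 0.63, FDR 0.287), with values of 0.46 without seedling replicate 2 and 1.71 without seedling replicate 1. Over all 9 lists, 36 of 63 tested genes were lower in floral buds, 3 were higher and 24 were not DEGs, with a median log2 fold change of −1.30. Of all genes tested, 9.52% were DEGs lower in floral buds and 10.3% were DEGs higher in floral buds.

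**Figure D5:**
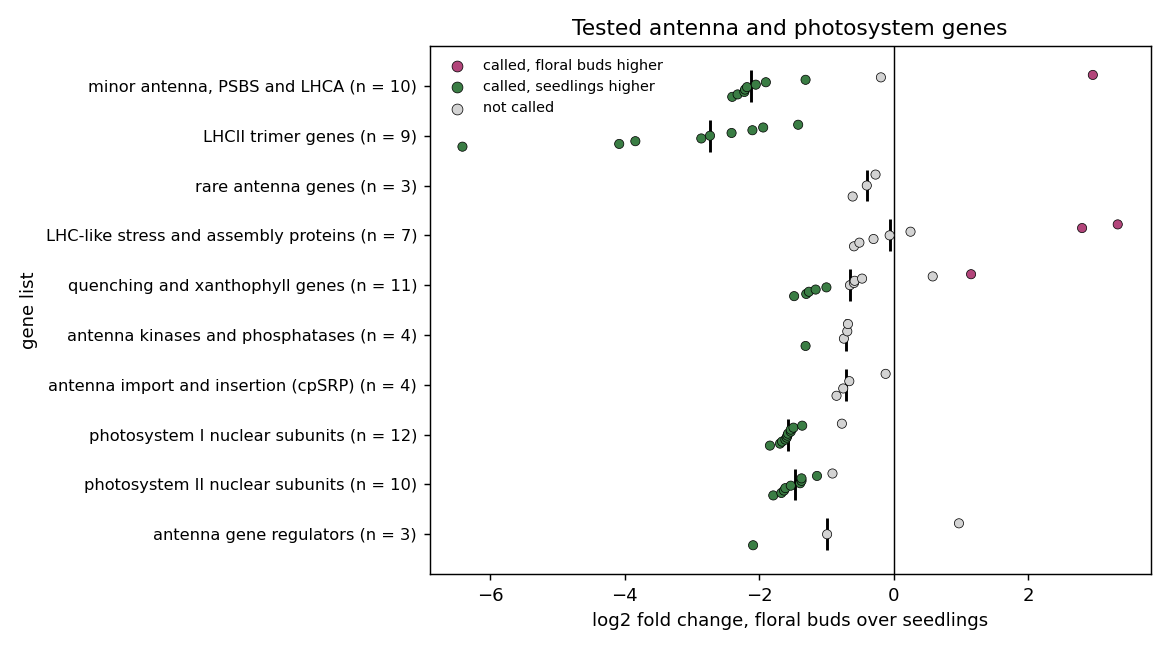
Log2 fold change (floral buds over seedlings) of each tested gene, with the 10 members in the top row and the antenna and photosystem lists under it, vertical bars at the medians and n the number of genes tested. The members' median of −2.12 lies between that of the LHCII trimer genes (−2.73) and those of the photosystem I (−1.57) and photosystem II (−1.46) subunits, and the value of ELIP2 rests on 1 count in each seedling library.

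The genes whose profile over the 4 libraries lay nearest to the median profile of the members were sought among 1193 other genes with a mean of at least 100 counts, by Euclidean distance of centred log2 CPM. The 5 nearest were XTH24, a cell wall xyloglucan endotransglucosylase (distance 0.139), LHCB2.1 (0.145), AOC2, an allene oxide cyclase of jasmonate synthesis (0.163), LHCB2.2 (0.176) and AT3G28940 (0.184). XTH24 had 101 and 86.1 CPM in floral buds, against 364 and 383 CPM in seedlings. The list thus mixed antenna genes with genes of other roles, and with 4 libraries the distance mostly reflects the size of the difference between the stages.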

How the data were processed

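Polyadenylated RNA of 2 floral bud and 2 seedling samples was sequenced by ONT DRS. The authors called bases with Guppy, aligned reads with minimap2 2.17 to the TAIR10 genome and joined them to genes with TrackCluster, by overlap and without strand. The deposited files hold estimated counts per gene with no normalisation. Fractions occurred in 83.8% of the nonzero values, and the reason is not given in the sources used here. All 24750 loci matched the RefSeq annotation of TAIR10.1, and 4093 were at 0 in every library. The 3 columns repeated in a combined table were identical to the libraries' own values.

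Counts were rounded to integers. Genes reaching 5 counts in the sum of the 4 libraries were fitted with edgeR 4.0.16 in R 4.3.3, with upper-quartile factors (taken for the authors' quantile normalization), the quasi-likelihood test and the stage as the only term. A DEG had a Benjamini-Hochberg FDR below 0.05 over all genes tested and a fold change above 2. SEs were approximated from the F statistic, as log2 fold change over its root. The common dispersion was 0.0213, a biological coefficient of variation of 14.6%. The SEs and FDRs do not rest on this value but on the spread estimated in the quasi-likelihood fit. In that fit no gene kept a spread of its own, so the SE and FDR of a gene do not reflect how far its replicates lay apart. CPM per kb used the longest RefSeq transcript. Shares have Wilson intervals at 95%, and the exact permutation tests were two-sided (scipy 1.17.1). Transcripts were compared with blastn 2.17.0. The members and the gene lists were chosen with earlier results of these data known. Named were all members, the largest and smallest log2 fold change of each list, any list gene higher in floral buds, the 5 nearest profiles, and overlapping or similar genes. Lhca5, CPSRP54 and CAB1 to CAB3, which fall outside this rule, were named after their values were seen. AT5G28450 was named too, although it aligned over less of the LHCA2 transcript than the rule for similar genes asked. Alternatives were TMM factors, library size alone, DESeq2 1.42.0, edgeR's exact test, limma-voom (limma 3.58.1) with quantile normalization, other count filters and fold limits, glmTreat, a replicate block, each library left out and unrounded counts. The last was added after the data were seen. The fits were also tested on simulated data.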

Additional observations from a re-analysis of the deposited data

How the results depend on the processing

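The 130 alternative fits of member fold changes (13 for each of the 10 genes) gave the same direction and the same call. The fold of LHCB4.1 moved most, to a log2 fold change of −1.27 with limma-voom and full quantile normalization, against −1.90. The number of members called was 8 or 9 over 15 alternatives, with 8 under glmTreat, where LHCB6 was lost. The background moved more. The number of DEGs over all genes was 3687, against 1965 with DESeq2, 2126 with glmTreat and 1037 with at least 10 counts required in each library, and leaving out a library gave 2906 to 3307. Without CAB1, CAB2 and CAB3, the log2 difference of the members over the LHCII trimer genes was 0.97 instead of 0.83.

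The replicate numbers of the stages did not pair the libraries (r = −0.0535 between same-numbered deviations over 18647 genes, a correlation across genes, which are not independent replicates). With the replicate block 9 members and 3095 genes in all were DEGs.

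Counts of small lists moved most. The LHC-like list had 0 to 4 DEGs, the quenching and xanthophyll list 0 to 6, the kinases and phosphatases 0 to 2, the signal recognition pathway 0 to 3 and the photosystem II subunits 4 to 10. With library size alone, the median log2 fold change of all genes was 0.154 instead of 0.0592, and PSBS was at −0.10 and LHCB6 at −1.21. Without the edgeR factors, a library with 3 counts of a gene is at 3.76 to 5.18 CPM. With 2 libraries a stage, this limits the ELIP2 value.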
